A study of Mus musculus with 7 samples.

Results

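Of the 2256 borders of lamin-associated domains (LADs) on the 19 mouse autosomes, 808 lay inside a protein-coding gene, and these borders cut 671 genes. LADs are long stretches of chromatin held against the lamina, a meshwork of proteins that lines the inside of the nuclear envelope. A border was the first or the last position of a LAD in the authors' list, and it was counted as genic when it lay strictly between the start and the end of a protein-coding gene in RefSeq's GRCm38.p6 gene table. The borders and genes were thus chosen by the measured LAD positions themselves, so the number of cut genes, their length and their share inside a LAD are descriptions and were not tested. The whole list held 1437 LADs with 2874 borders, and the 1128 LADs of the autosomes gave the 2256 borders used here.

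The LADs were mapped by CUT&RUN in a mouse embryonic fibroblast line labelled iMEF, in which an antibody against Lamin B1, a protein of the lamina, directs a nuclease to the DNA around it. The series held 7 libraries from this line, with no treatment named: 2 with Lamin B1 antibody, 2 with control IgG, 1 with each of the H3K9me2 antibodies ab1220 and 39041, and 1 with H3K14ac antibody. Each reaction used 500000 cells and 2 hours of digestion, and nothing in the labels says that the replicate libraries came from separate cultures. The merged list is named as wild type and carries no values of single libraries, so the read depth behind a border is unknown, no value below has a replicate error, and spreads are over chromosomes. The length of each LAD (100% of them) was a whole number of 2.5 kb steps to within 125 bp, so a border is placed to about 2.5 kb. The label could not be checked against expression. Of 10 genes that mark fibroblasts or encode lamins (Pdgfra, Pdgfrb, Thy1, Vim, Fn1, Col3a1, Col1a2, Col1a1, Lmnb1 and Lmna), 10 lay wholly outside LADs and 0 were cut, where 75.9% of all protein-coding genes lay wholly outside, so their place does not check the label.

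LADs are known as gene-poor chromatin in which most promoters are silent, and the regions between them hold most of the active genes. A gene is transcribed from its promoter at the 5′ end to its 3′ end, so a border within a gene leaves either its promoter end or its 3′ end at the lamina, unless the gene is cut more than once. Many promoters of vertebrate genes are rich in CpG, the dinucleotide at which DNA is methylated, and these CpG-rich promoters serve both widely expressed genes and many developmental genes.

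Promoter sequences from both sides of the borders are shown first, for 4 genes. The sequences are the 250 bases before the annotated start, taken from the RefSeq promoter table of GRCm38.p6 and written in the direction of transcription, with each CpG in capitals. Anks1b, which encodes a synaptic scaffold protein, is a cut gene whose first start lay outside the LAD (chr10:89873259-89873508, plus strand). Dnah9, a dynein heavy chain of motile cilia, is a cut gene whose first start lay inside it (chr11:66168552-66168801, minus strand). Dgkb, a diacylglycerol kinase, was not cut and lay wholly inside a LAD (chr12:37879924-37880173, plus strand). These 3 were chosen after the values were seen, as long genes near the median CpG content of their group pooled over all lengths. Anks1b has 4 more annotated starts inside the LAD, and those 957 kb downstream had CpG observed/expected ratios of 0.95 and 1.02, above the 0.71 of the start printed here (the ratio is defined with the promoters of all cut genes).
Anks1b, cut, start outside: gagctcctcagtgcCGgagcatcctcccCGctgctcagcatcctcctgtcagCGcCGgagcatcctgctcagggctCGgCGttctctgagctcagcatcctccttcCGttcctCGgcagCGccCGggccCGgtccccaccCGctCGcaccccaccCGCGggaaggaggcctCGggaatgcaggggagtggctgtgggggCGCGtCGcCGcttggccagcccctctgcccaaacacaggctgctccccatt
Dnah9, cut, start inside: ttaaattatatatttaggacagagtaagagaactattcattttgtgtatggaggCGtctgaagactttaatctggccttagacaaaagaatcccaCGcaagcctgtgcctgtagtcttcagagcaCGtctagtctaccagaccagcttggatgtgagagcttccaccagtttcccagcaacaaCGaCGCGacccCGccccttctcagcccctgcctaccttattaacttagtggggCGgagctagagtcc
Dgkb, not cut, inside: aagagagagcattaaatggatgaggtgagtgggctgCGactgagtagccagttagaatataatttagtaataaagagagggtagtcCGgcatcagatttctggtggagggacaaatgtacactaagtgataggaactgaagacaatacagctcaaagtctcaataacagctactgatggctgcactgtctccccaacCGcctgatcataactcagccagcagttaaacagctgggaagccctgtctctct
Slc39a10, which encodes a zinc importer, has annotated starts on both sides of its borders, both on the minus strand. Its upstream start lay inside a LAD (chr1:46925777-46926026), and its second start, 72.2 kb downstream, lay in a gap between LADs (chr1:46853619-46853868).
Slc39a10, upstream start, inside: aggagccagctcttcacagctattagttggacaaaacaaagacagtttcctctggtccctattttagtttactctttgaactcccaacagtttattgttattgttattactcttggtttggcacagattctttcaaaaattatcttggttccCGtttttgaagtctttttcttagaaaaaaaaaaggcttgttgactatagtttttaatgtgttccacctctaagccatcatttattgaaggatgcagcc
Slc39a10, downstream start, outside: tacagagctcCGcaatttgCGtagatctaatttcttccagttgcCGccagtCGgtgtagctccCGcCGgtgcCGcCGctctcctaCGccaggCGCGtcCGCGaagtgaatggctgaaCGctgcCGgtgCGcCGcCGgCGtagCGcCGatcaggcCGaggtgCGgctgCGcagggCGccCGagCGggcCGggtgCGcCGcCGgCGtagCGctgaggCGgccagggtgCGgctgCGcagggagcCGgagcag
Slc39a10 is an extreme case, as its start outside had the highest ratio among the genes with starts on both sides. The stretch before that start held 37 CpG, and that before the start inside held 1. Anks1b had 20, Dnah9 had 8 and Dgkb had 3. The ratio of Dgkb was 0.19, against a median of 0.57 in uncut genes of at least 200 kb inside LADs. It does not stand for long uncut genes. These counts are taken up again below with the promoters of all cut genes.

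Borders lay in genes at a frequency between those of the chromatin on either side. Of the 2256 borders, 35.8% were genic (95% Wilson interval, 33.9% to 37.8%, which covers counting error only), and starts and ends of LADs gave nearly the same share (36.2% of 1128 and 35.5% of 1128). Protein-coding genes covered 27.9% of the bases inside LADs and 53.3% of the bases between them, and 40.7% of the whole span. Over the 19 autosomes the genic share of borders averaged 36.2% ± 4.96 (SD), from 26.7% on chromosome 4 to 47.4% on chromosome 14. It was above the share of bases in genes inside LADs on 18 of 19 autosomes, below the share outside on 19, and below that of the whole span on 17.

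The change from gene-poor to gene-rich chromatin lay on the outer side of the border. At 500 kb inside the LAD, 29.2% of positions were in a gene, and this share was 33.0% at 100 kb inside and 35.8% at the border. It was 39.4% at 20 kb outside, 47.7% at 50 kb and 51.8% at 100 kb, and 53.5% at 500 kb. From the border to 100 kb outside it thus moved by more than over the 500 kb inside. Positions were read only within the same LAD or gap, so the far distances rest on fewer borders (1166 at 500 kb inside and 820 at 500 kb outside).

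**Figure D1:**
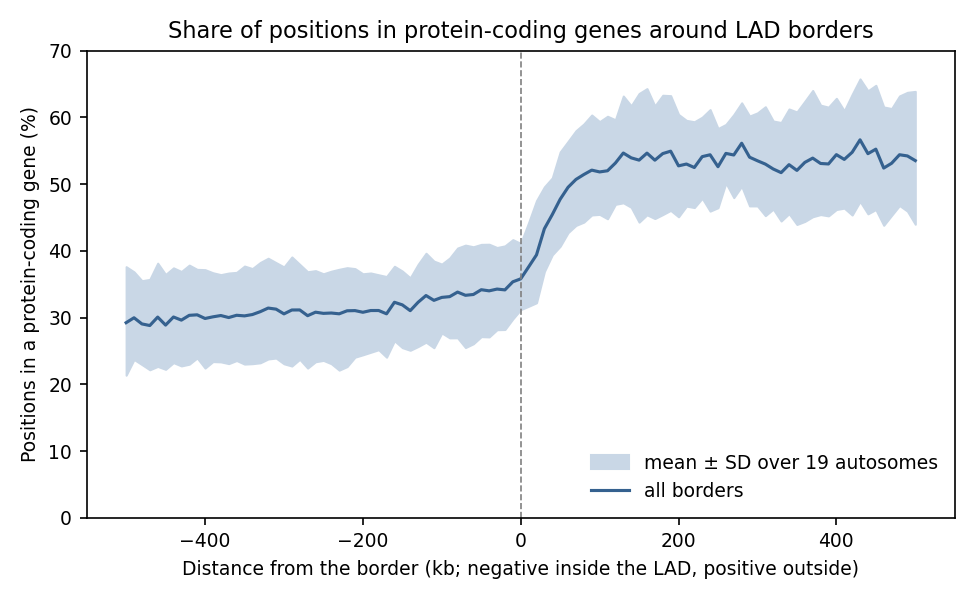
The plot shows the percentage of positions in a protein-coding gene against the distance from the border in kb, negative inside the LAD and positive outside, with the line for all borders pooled and the band for the mean ± SD over 19 autosomes. The line is at 29.2% at 500 kb inside, 35.8% at the border and 51.8% at 100 kb outside.

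More LADs had at least 1 genic border than had none. Of the 1128 LADs, 513 (45.5%) had neither border in a gene, 422 (37.4%) had 1 and 193 (17.1%) had both. LADs at genic borders had a median length of 482 kb and those at other borders 597 kb, and the adjoining gaps had medians of 255 kb and 307 kb. The genic share was 36.6% for LADs under 100 kb, 38.8% from 100 to 500 kb, 32.8% from 500 to 1500 kb and 34.7% from 1500 kb, so it had no steady trend with LAD length. By the length of the adjoining gap it was 37.3% under 100 kb and 38.5% from 100 to 500 kb. It was lower at longer gaps, 33.7% from 500 to 1500 kb and 31.8% from 1500 kb. A border lay a median of 29.5 kb from the nearer end of the gene it cut, and 56 of the 820 pairs of a border and a gene had it within 2.5 kb of a gene end. The pairs outnumber the borders because 10 borders lay in 2 genes and 1 lay in at least 3.

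The cut genes were long. They made up 3.25% of the 20665 protein-coding genes of the autosomes, and their median length was 116 kb (quartiles 53.5 and 278 kb, range 0.918 to 2241 kb), against 17.5 kb for all protein-coding genes. A longer gene meets a border more often whatever it encodes, so the share of genes cut is given by length. Of genes under 10 kb, 0.218% were cut. The share was 1.66% from 10 to 50 kb, 5.93% from 50 to 100 kb, 10.1% from 100 to 200 kb, 21.5% from 200 to 500 kb and 34.3% from 500 kb. Among the 945 genes of at least 200 kb it was 24.4%. As the cut genes were selected by the same borders, nothing further is read from these shares.

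Genes that were not cut also changed place with length. Of the 19994 uncut genes, 4309 lay wholly inside a LAD and 15685 wholly outside. The share wholly inside was 31.6% of genes under 10 kb, 12.4% of genes of 50 to 100 kb and 46.3% of genes of at least 500 kb. Of the 216 genes of at least 500 kb, 42 (19.4%) lay wholly outside LADs, 74 were cut and 100 lay wholly inside. Very long genes without any contact with a LAD were thus a minority in this line.

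**Figure D2:**
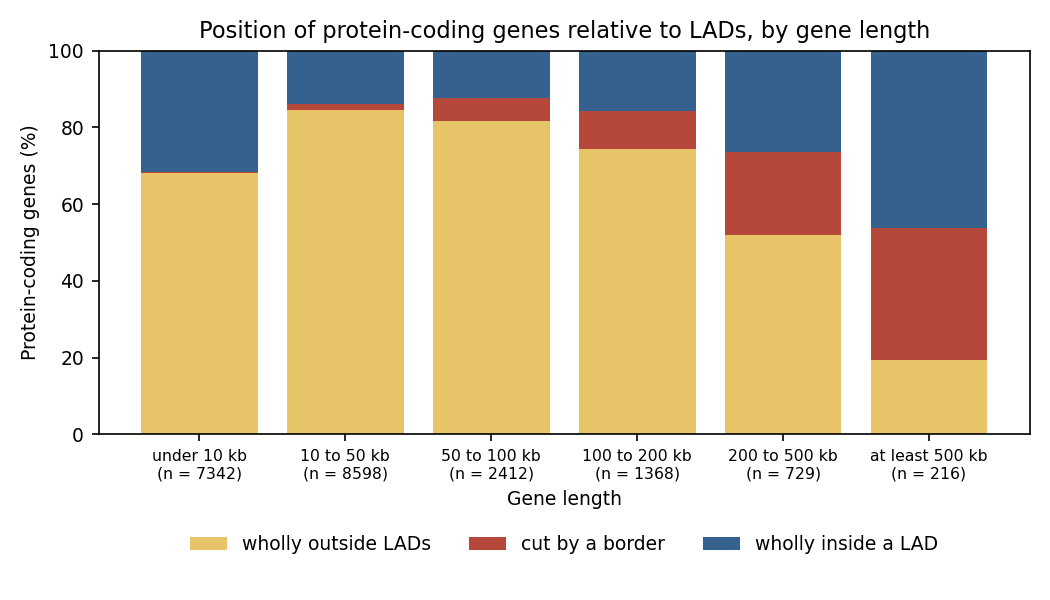
Stacked bars show the percentage of protein-coding genes wholly outside LADs, cut by a border and wholly inside a LAD, for 6 classes of gene length with the number of genes under each. The cut share goes from 0.218% in genes under 10 kb to 34.3% in genes of at least 500 kb, and the share wholly outside is 19.4% in the longest class.

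The share of a cut gene inside LADs had a median of 58.6% (95% order-statistic interval, 55.1% to 62.0%) with quartiles of 32.4% and 80.7%. It was under 10% in 46 genes, between 10% and 90% in 545 and over 90% in 80. In total 98.6 Mb of the 152 Mb of cut genes lay in LADs. The median share was 42.6% in genes of 10 to 50 kb, 60.1% in genes of 100 to 200 kb and 76.5% in genes of at least 500 kb. A single border cut 573 genes, 72 had 2 borders, and 13 had at least 4.

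The longest cut genes differed in which end lay inside a LAD. Cntnap2, which encodes a neurexin-related protein of axons, was the longest, spanning 2241 kb on chromosome 6 (45060061 to 47301393), with 92.3% of it in a LAD and 172 kb at its 3′ end outside. Lsamp, an immunoglobulin-type adhesion protein of neurons, spanned 2197 kb on chromosome 16 and had 99.1% in a LAD, with 19.6 kb at its 3′ end outside. Dlg2, a scaffold of the postsynaptic density, had the opposite layout: 51.2 kb at its promoter end lay outside and 97.4% of its 1973 kb lay inside. Naaladl2 (1346 kb) had 97.0% inside. Pde4d, a phosphodiesterase that breaks down cyclic AMP, stood apart from these, with 0.997% of its 1302 kb inside a LAD and 1289 kb outside.

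The genes with the most borders alternated between LAD and gap along their length. Magi2, a membrane scaffold protein with PDZ domains, had 7 borders, and 63.5% of its 1485 kb lay in LADs. Tenm3, an adhesion protein of the teneurin family, also had 7, with 32.6% of its 1297 kb inside. Macrod2, a hydrolase that removes ADP-ribose from proteins, had 6 borders and 80.9% of its 1998 kb inside. Ctnna3, a catenin of cell junctions, and Lrmda had 5 each, with 77.2% of 1574 kb and 49.4% of 1037 kb inside. Adgrv1 and Enox1 also had 5 and were the shorter of the 4 genes with that number. Rbfox1, a splicing factor of neurons and muscle, had 4, with 68.4% of its 1528 kb inside. Of these genes, Macrod2 and Rbfox1 began and ended inside a LAD, and Magi2, Tenm3, Ctnna3 and Lrmda had 1 end inside.

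**Figure D3:**
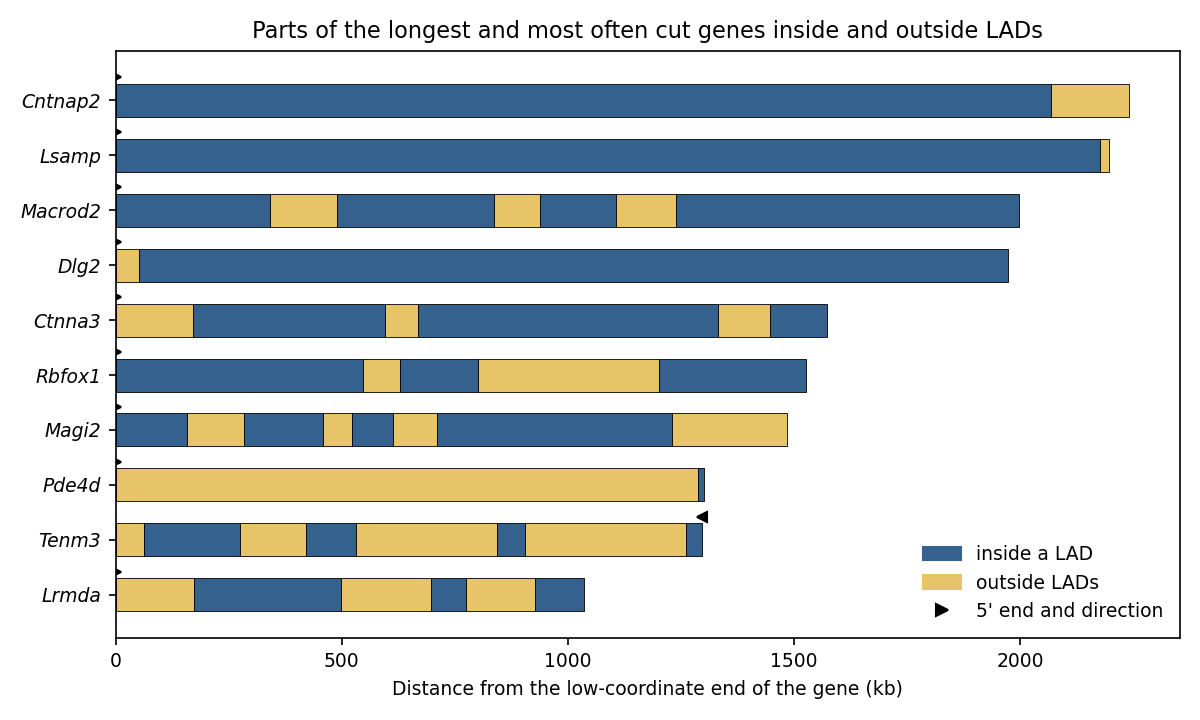
The map draws to scale 10 of the longest and most often cut genes, those with a strand in the promoter table, by distance in kb from the low-coordinate end of each gene, with parts inside LADs in blue and parts outside in yellow and an arrowhead at the 5′ end. Cntnap2 and Lsamp are blue except at their 3′ ends, Dlg2 is blue except at its promoter end, and Magi2 and Tenm3 change colour 7 times.

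Wwox and Immp2l are known for lying at chromosomal fragile sites, and they were singled out after their values were seen. Wwox, an oxidoreductase, had 4 borders, with both ends outside and 58.6% of its 913 kb inside LADs. Immp2l, a peptidase subunit of mitochondria, had 4 borders and both ends outside too, with 76.8% of its 932 kb inside.

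Whole LADs and whole gaps fitted within single genes. Inside 1 gene lay 94 of the 1128 LADs (8.33%), in 82 genes, with a median length of 117 kb. The longest of these was a LAD of 990.0 kb in Asic2, an acid-sensing ion channel gene of 1088 kb on chromosome 11, which left 98.2 kb of the gene outside, split over its ends. Of the gaps between LADs, 54 of 1109 (4.87%) lay inside 1 gene, in 42 genes, with a median length of 102 kb. No gap in the autosomal list was shorter than 52.5 kb, whereas LADs went down to 17.5 kb. Shorter gaps within genes could therefore not be seen, and the shares and medians of LADs and gaps are not on equal terms. The longest gaps within a gene were 537 kb in Arhgap24, a regulator of small GTPases, and 400.0 kb in Rbfox1. An annotated start of any gene was found in 26 of the 94 LADs (27.7%) and in 19 of the 54 gaps (35.2%). A start of the gene that held the interval lay in 13 of the 94 LADs and in 8 of the 54 gaps. The genes with such gaps were Slc39a10, Magi2, Ppargc1a, Syne1, Gm40847, Ptprg, Tafa5 and Rbfox1. In the gap of 72.5 kb in Ctnna3 it was the start of Lrrtm3, a synaptic adhesion gene nested in Ctnna3, and the border at 64025877 on chromosome 10 cut both genes.

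By their ends, the cut genes fell into 592 (88.2%) with 1 end inside a LAD, 60 (8.94%) with both ends outside and 19 (2.83%) with both ends inside. Genes with both ends outside had a median of 43.1% in LADs and a median length of 261 kb. Those with both ends inside had 76.2% and 518 kb. A gene with both ends inside must hold a whole gap, and the list held none under 52.5 kb, which limits their number. Erg, a transcription factor of endothelial and blood cells, had both ends outside and 61.6% of its 227 kb inside. Trpm3, a cation channel, had both ends inside, with 93.6% of its 858 kb in LADs and a single gap of 55.0 kb.

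The rule did not use the direction of transcription, so the side of the promoter could be described apart from it. The strand came from the promoter table for 523 of the 671 cut genes (77.9%) and for 16457 of all 20665. Among the 458 genes with 1 end inside and a strand, the promoter end lay outside the LAD in 252 (55.0%, Wilson interval 50.4% to 59.5%) and inside in 206. A gene with its promoter end outside is transcribed toward the LAD. For comparison, at borders outside genes, the nearest uncut gene within 100 kb on the outer side was transcribed toward the LAD at 322 of 651 borders (49.5%, interval 45.6% to 53.3%). The intervals overlap. Over 18 autosomes with strands the promoter end was outside in 55.7% ± 15.6 (SD) of the genes, more often outside on 13, more often inside on 4, and equally often on 1.

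Shorter and longer cut genes differed in the side of the promoter. Under 200 kb the promoter end was outside in 195 of 327 genes (59.6%, interval 54.2% to 64.8%), and from 200 kb in 57 of 131 (43.5%, interval 35.3% to 52.1%). The shorter genes had the higher share on 14 of 18 autosomes, by 16.2 percentage points ± 19.5 (SD over chromosomes), so the spread between chromosomes was larger than the mean difference. By class the share was 46.2% of 13 genes under 10 kb, 56.8% of 111 from 10 to 50 kb, 61.1% of 108 from 50 to 100 kb, 63.2% of 95 genes from 100 to 200 kb, 45.5% of 88 from 200 to 500 kb and 39.5% of 43 from 500 kb. The split at 200 kb was set with these values known.

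**Figure D4:**
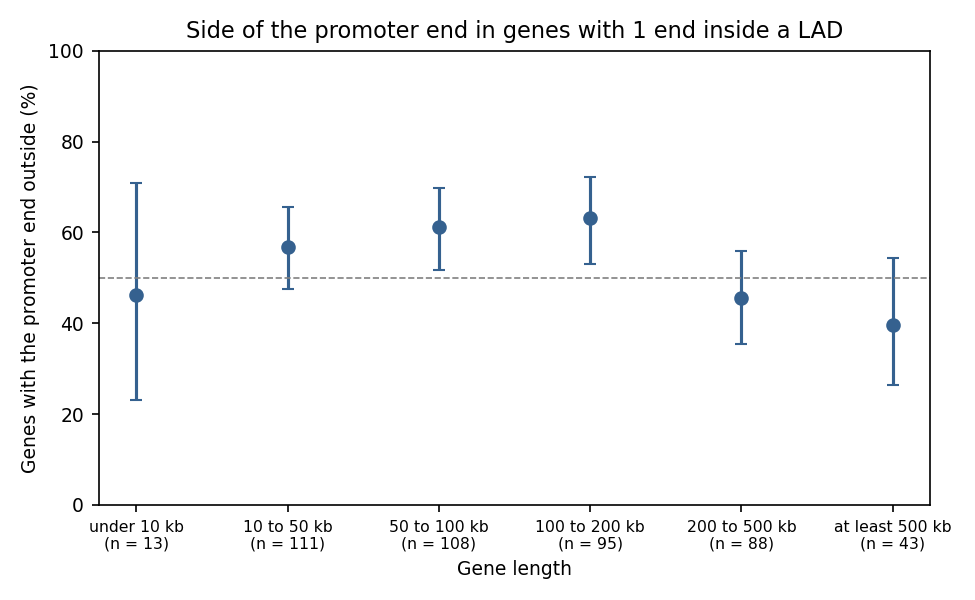
Points give the percentage of genes with the promoter end outside, among cut genes with 1 end inside a LAD, for 6 classes of gene length, with 95% Wilson intervals and the number of genes under each. The points lie at 46.2% under 10 kb, 56.8% from 10 to 50 kb, 61.1% and 63.2% from 50 to 200 kb and 45.5% and 39.5% above, and the dashed line marks 50%.

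Pooled over lengths, the part of a gene left outside had a similar median length whichever end it held. In the 243 genes with a single border and the promoter end outside, the border lay a median of 32.1 kb from the 5′ end. In the 197 with the promoter end inside, it lay a median of 32.2 kb from the 3′ end, and a median of 50.4 kb from the 5′ end. By length the medians of the part outside differed in opposite directions. In genes under 200 kb they were 29.4 kb with the promoter end outside and 24.9 kb with it inside. From 200 kb they were 61.3 kb and 68.1 kb. The longest genes of the first kind after Dlg2 and Pde4d were Ccser1 (1203 kb, 83.0% inside), Anks1b (1100 kb, 98.8% inside) and Nell1, a secreted protein linked to bone formation (888 kb, 98.6% inside). Those of the second kind after Cntnap2 and Lsamp were Tenm2, a teneurin (1230.4 kb, 94.2% inside), Nkain2 (1208 kb, 99.9% inside) and Galntl6, of the glycosyltransferase family that starts mucin-type glycans (1140.0 kb, 85.7% inside). Along the gene from the 5′ to the 3′ end, the 652 borders in genes with a strand were spread as 19.5%, 18.6%, 18.3%, 19.5% and 24.2% over successive stretches of 20% of the gene.

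Over all lengths, promoter CpG content was higher in cut genes with the start outside the LAD than in those with it inside, and the groups overlapped. It was measured as the CpG observed/expected ratio, the number of CpG relative to that given by the C and G content, over 300 bases from 250 before to 50 after the start. The median ratio was 0.71 in the 298 cut genes with the first start outside LADs (95% order-statistic interval, 0.649 to 0.751) and 0.54 in the 225 with it inside (0.463 to 0.591). A ratio of at least 0.6 with at least 50% GC, called CpG-rich here, was found in 57.7% of the first group and 39.6% of the second, against 47.3% of all 16457 promoters. The median was higher outside on 16 of 18 autosomes, by 0.147 ± 0.162 (SD over chromosomes), so the spread between chromosomes exceeded the mean difference. In genes under 200 kb the medians were 0.71 and 0.47. In genes of at least 200 kb they were 0.72 and 0.60 with overlapping intervals (0.634 to 0.821 and 0.493 to 0.737). Intervals also overlapped from 10 to 50 kb (0.464 to 0.706 outside, 0.224 to 0.587 inside) and from 100 to 200 kb (0.588 to 0.816 and 0.495 to 0.705). From 50 to 100 kb they were apart (0.619 to 0.821 and 0.307 to 0.549). Under 10 kb the medians were 0.37 in 6 genes and 0.33 in 7.

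Pooled over lengths, the starts of cut genes inside LADs had a higher CpG ratio than those of genes wholly inside LADs. The 3558 uncut genes inside LADs had a median ratio of 0.18, with 12.7% CpG-rich, and the 12376 uncut genes outside had 0.70, with 57.1% CpG-rich. Cut genes with the start outside had a similar pooled median (0.71), but theirs was the lower one in each of the 6 length classes, such as 0.61 against 0.72 from 10 to 50 kb, 0.73 against 0.80 from 100 to 200 kb and 0.72 against 0.78 from 200 to 500 kb. For starts inside, the cut genes were above the uncut ones on 18 of 18 autosomes, by 0.335 ± 0.118 (SD). Gene length moved with this difference: in genes of at least 200 kb the medians were 0.60 for cut and 0.57 for uncut genes with starts inside, with overlapping intervals (0.493 to 0.737 and 0.523 to 0.616). In genes under 200 kb they were 0.47 and 0.16, but 1953 of the 3343 uncut genes in that range were under 10 kb, against 7 of the 135 cut genes. Within 10 to 50 kb the medians were 0.37 (interval 0.224 to 0.587, n = 48) and 0.23 (0.215 to 0.250, n = 985). Within 50 to 100 kb they were 0.46 (0.307 to 0.549, n = 45) and 0.35 (0.303 to 0.408, n = 245), and within 100 to 200 kb 0.58 (0.495 to 0.705, n = 35) and 0.49 (0.435 to 0.528, n = 160). Within each of these classes the intervals overlap.

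**Figure D5:**
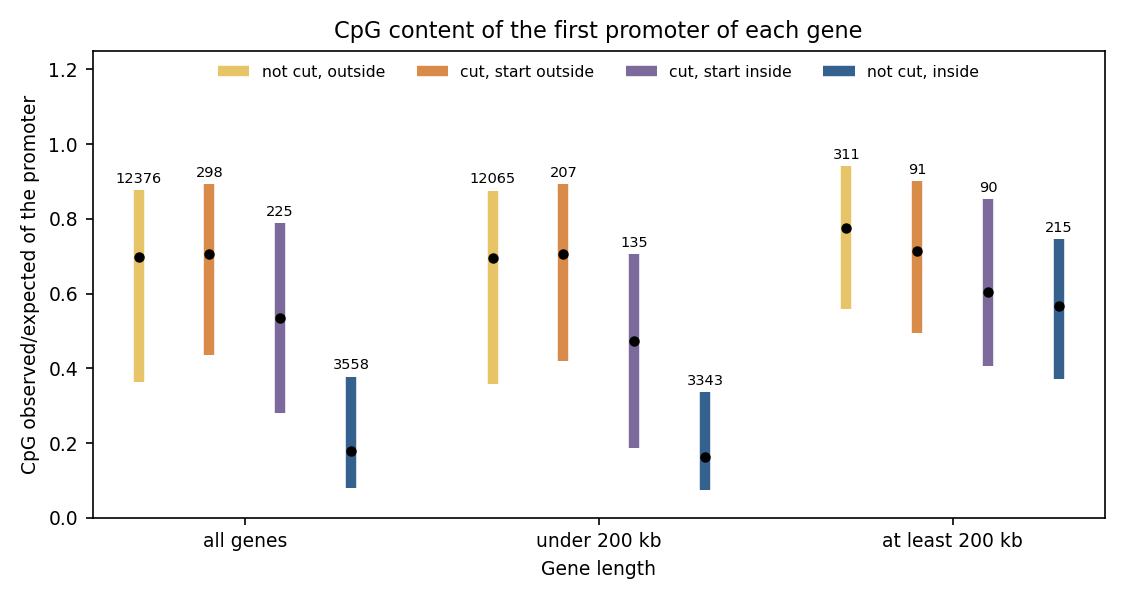
Bars give the quartiles and points the median of the promoter CpG observed/expected ratio for uncut genes outside LADs, cut genes with the start outside, cut genes with the start inside and uncut genes inside, for all genes and by length, with the number of promoters above each bar. Among genes under 200 kb the medians are 0.70, 0.71, 0.47 and 0.16, and among longer genes 0.78, 0.72, 0.60 and 0.57.

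Some cut genes had annotated starts on both sides of a border. Of the 137 cut genes with at least 2 starts in the promoter table, 42 (30.7%) had them on both sides, 49 had all starts inside and 46 had all outside. The starts outside had the higher mean CpG ratio in 29 of the 42. This held in 23 of the 26 genes whose first start was outside and in 6 of the 16 whose first start was inside. In uncut genes with at least 2 starts, the first start exceeded the mean of the others in 1297 of 2523 (51.4%). That share compares the first start with the others, not the sides of a border. The uncut genes were also not picked for starts far enough apart to span a border. It is thus no baseline for the counts above, and an effect of the first start was not tested.

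Slc39a10 was among the 6 genes whose first start lay inside and whose start outside had the higher ratio. The gene spans 118 kb on chromosome 1 (46807544 to 46925776), began and ended inside LADs, and held a gap of 72.5 kb. The start in the gap had a CpG ratio of 1.20 and the upstream start inside the LAD 0.089, which are the sequences printed above. Atp2c1, a calcium pump of the Golgi, had ratios of 0.90 at its start outside and 0.40 at its upstream start inside, and Egf, the epidermal growth factor gene, 0.83 and 0. In the opposite order, the promoter end of Ctnna3 lay outside with a ratio of 1.16, and a start 391 kb downstream lay inside with 0.12. Abcc4, an efflux transporter, had 1.04 at its start outside and 0.38 at the start inside. In Cntnap2 the upstream start inside the LAD had the higher ratio (0.57), and the start outside, 2184 kb downstream, had 0.19.

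The cut genes were also counted in 10 lists drawn up by symbol, which together held 109 of the 671. Of all protein-coding genes, 3.25% were cut. Synaptic adhesion genes (cell contact proteins and scaffolds of synapses) had 15 of 90 cut, ion channels 18 of 189, neurotransmitter receptors 10 of 94, and cadherins and protocadherins outside the clusters 7 of 56. Extracellular matrix genes had 14 of 189 cut, developmental transcription factors 15 of 314, receptor tyrosine kinases and phosphatases 8 of 59, and enzymes of cyclic nucleotides 9 of 49. Cytoskeleton and adhesion genes had 11 of 122 cut and axon guidance genes 2 of 72. The cytoskeleton list was drawn by symbol and not by expression, and its cut members include Myh1, Myh8 and Myo3a. It need not hold genes active in fibroblasts. Since these lists differ in gene length, the counts among genes of at least 200 kb are set beside the 24.4% of all such genes.

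These counts are small, and the lists were not tested against all long genes. Synaptic adhesion genes had 12 of 48 cut, developmental transcription factors 7 of 36, extracellular matrix genes 6 of 29, neurotransmitter receptors 4 of 21 and cytoskeleton and adhesion genes 5 of 21. Ion channels had 13 of 39, cadherins 4 of 13, cyclic nucleotide enzymes 5 of 13 and receptor tyrosine kinases and phosphatases 6 of 15. Of the 19 axon guidance genes of this length 0 were cut, 11 lay wholly inside LADs and 8 wholly outside. Of all genes of at least 200 kb, 31.0% lay wholly inside LADs and 44.6% wholly outside. Of the 48 long synaptic adhesion genes 28 were wholly inside and 8 wholly outside. Of the 21 long cytoskeleton and adhesion genes 1 was wholly inside and 15 wholly outside.

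Among the ion channels, Kcnip4, an auxiliary subunit of voltage-gated potassium channels, had 94.5% of its 1136 kb inside, and Cacna2d3, an auxiliary calcium channel subunit, had 89.6% of 818 kb inside. Kcnma1, the calcium-activated BK potassium channel, had 3 borders and 26.9% of 713 kb inside. Of the glutamate receptors, Grm8 had 85.6 kb of its 860.0 kb outside and Grid1 had 86.7% of its 763 kb inside. The 18 cut channel genes had a median of 71.7% in LADs, against 58.6% for all cut genes, and 13 of the 18 were at least 200 kb long, a length at which all cut genes had a median of 71.9%.

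Receptor tyrosine kinases cut by borders included Erbb4, a neuregulin receptor, with 3 borders and 81.3% of its 1077 kb inside, and Alk, with 3 borders and 83.7% of 736 kb inside. Ptprg, a receptor phosphatase, had 3 borders too, but 22.3% of its 689 kb inside. Egfr, the receptor of epidermal growth factor, had 3.66% of its 162 kb inside, at the promoter end. Flt1, a receptor of vascular endothelial growth factor, had both ends outside and 41.0% of its 165 kb inside.

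Among transcription factors, Rora, an orphan nuclear receptor, had 56.5% of 735 kb inside and Zfhx3, a zinc finger homeobox factor, 41.6% of 682 kb. Klf12 had 79.2% of 420 kb inside. Each of these 3 had its promoter end in a LAD. Ebf1, a factor of B cell development, had its promoter end outside and 89.8% of its 390.0 kb inside.

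Of the matrix genes, Reln, a secreted guidance protein of the brain, had 63.5% of 460 kb inside and Fras1, a basement membrane protein, 55.5% of 411 kb. Col22a1, a collagen, had both ends inside and 83.1% of 355 kb in LADs. Among cytoskeleton genes, Diaph3, a formin that builds actin filaments, had 8.37% of its 486 kb inside, Myo16 had 38.8% of 481 kb and Myo3a 87.0% of 391 kb. Pcdh9, a protocadherin, had 4 borders with both ends outside and 17.3% of 879 kb inside, whereas Cdh4, a classical cadherin, had 90.7% of 457 kb inside. Of the other cyclic AMP phosphodiesterases, Pde4b had 70.3% of 520 kb inside and Pde10a 13.0% of 461 kb. Epha7, an ephrin receptor of axon guidance, had 70.7% of its 154 kb inside.

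At the edge of the rule, the borders nearest to a gene end lay 42 bp inside Egfem1, 74 bp inside the beta-defensin gene Defb40 and 114 bp inside 6720489N17Rik. Just outside it were Caln1, a calcium-binding protein gene wholly in a LAD whose end lay 5 bp from a border, Adam22, a synaptic receptor gene wholly in a LAD at 61 bp, and Zar1l, wholly outside at 220.0 bp. These distances are all under the 2.5 kb to which borders are placed, so whether these 6 genes are cut is not resolved.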

How the data were processed

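The deposited values are LAD start and end positions in base pairs, in 1 BED list that the authors made from merged libraries and named as wild type and mm10. Its name is the basis for reading it as the pool of the Lamin B1 libraries. The submitters' processing notes name Bowtie2 and mm10. The domain caller, its threshold and the use of IgG are not given in the sources used here, and the caller's 2.5 kb step limits the placement of every border. Depth per sample is unknown.

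Borders were read from columns 2 and 3 and intersected with genes of the RefSeq table (GRCm38.p6, the build of mm10) in Python 3.11.15 with numpy 2.4.6 and pandas 2.3.3. Strand and promoter sequence (250 bases before to 50 after each start) came from the RefSeq promoter table, which matched 16457 of 20665 genes and none of chromosome 18. The 5′ end was the end in the gene table on that strand, and CpG was taken at the table's first start, which lay more than 2.5 kb from the 5′ end in 66 of 523 cut genes. Wilson and order-statistic intervals are at 95% and cover counting error only. No test was run, because 1 merged list holds no replicates. The intersection code was checked on simulated data.

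The members, gene lists and length split were chosen with earlier results of these data known. Named were the 10 longest cut genes, the 5 with the most borders, the 5 longest with a single border and the promoter end on each side, the 5 longest with a whole LAD and with a whole gap inside, the 3 nearest to the rule on each side and the 3 longest of each list. Some of these are not reported here. Other genes were picked after their values were seen. Alternatives moved borders by 2.5 kb, set minimum LAD and gene lengths of 100 kb and 10 kb, joined gaps of at most 100 kb, or changed the genes used.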

Additional observations from a re-analysis of the deposited data

How the results depend on the processing

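Of 173 values of 19 results under 8 planned and 2 alternatives added after seeing the data, 167 kept to the main value within its interval or 1.5 times its count, and none changed direction. The share of borders inside a gene, 35.8%, was 33.5% when a border had to lie at least 2.5 kb from both gene ends and 45.2% with all annotated genes. The median length of cut genes, 116 kb, was 85.5 kb with all annotated genes. Joining gaps of at most 100 kb left 9 of the 14 cut matrix genes. It also left 1 of the 2 axon guidance genes, as did LADs of at least 100 kb. Over the alternatives run for each result (the CpG difference was not recomputed for all annotated genes or the first start, nor the number of cut genes for the first start), the number of cut genes ranged from 576 to 923, the share with only the promoter end outside from 53.1% to 58.8%, and the CpG difference from 0.158 to 0.195 (main value 0.170). The interval of the share with only the promoter end outside, 50.4% to 59.5%, included 50% with LADs of at least 100 kb (49.6% to 59.0%), with gaps joined (48.2% to 57.9%) and with the first start used (49.8% to 58.9%). No paired analysis was possible because the deposited list is merged and carries no values of single libraries. Leaving out a Lamin B1 library was not run for the same reason. Read depth, which would limit short LADs and gaps, is unknown.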
